A study of Macaca mulatta with 6 samples.

Results

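Neurotransmitter receptors and the scaffolds that hold them at synapses were followed in RNA from the blood plasma of rhesus macaques. The genes were chosen by their Ensembl macaque symbols: receptors for glutamate, GABA, glycine, acetylcholine, serotonin, dopamine and the adrenergic ligands, and the scaffold families DLG and SHANK. The choice gave 113 of the 35432 genes listed, 104 of them receptor genes and 9 scaffold genes. GRID2IP came in through the start of its symbol and is counted here with the scaffolds, because it encodes delphilin, a postsynaptic scaffold protein. The set was proposed with DRD3, DLG4 and the detection of its members already known in these data, so detection and share are given as descriptions and carry no test.

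The study took plasma of 2 animals, named A and B, and parted it on a gradient into lipoproteins, extracellular vesicles (EVs, membrane-bound particles released by cells) and proteins, with 1 library for each of the 3 fractions in each animal. The labels name the material of all 6 as plasma EV, give proteinase K, RNAse and DNAse as the treatment of all, and state no age, sex or stress history, although the series title speaks of early life stress. Gene counts were analysed for both EV libraries and, from a second table, for sums that the authors made in each animal over libraries they did not name.

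Receptors for fast transmission are ion channels that open when the transmitter binds, as in the AMPA, kainate and NMDA receptors for glutamate, the GABA-A and glycine receptors, the nicotinic acetylcholine receptors and the type 3 serotonin receptor. The other receptors signal more slowly through G proteins, as do the metabotropic glutamate, GABA-B and muscarinic receptors, all dopamine and adrenergic receptors and most serotonin receptors. DLG and SHANK proteins lie under the postsynaptic membrane and tie receptors to signalling enzymes and the cytoskeleton. Many of these genes are best known from the brain, but adrenergic, muscarinic, serotonin and dopamine receptors also act in vessels, heart, gut and blood cells.

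Gene counts added up to 10397 in EV library A, 2842 in EV library B, 62794 in sum A and 54534 in sum B. EV library A had 2615337 input reads, 24.26% of them mapped uniquely, and EV library B 913091, with 23.38%. Gene counts were thus far fewer than uniquely mapped reads, and the reason was not tested. At a count of 0, a gene may make up as much as 0.0289% of the counts in EV library A, 0.106% in EV library B, 0.00478% in sum A and 0.0055% in sum B, the equivalent of 3 counts. These limits, and all intervals that follow, cover counting error only and are too narrow if the counts include PCR copies. Counts were not adjusted for gene length, so a higher count in one gene than in another is not a higher level per length. The listed markers of blood and liver cells had few counts or none. The 10 platelet markers, and the 8 of 11 erythroid markers with a matching symbol, had 0 counts in every column. The 11 of 12 leukocyte markers that matched had 2 counts in sum A and 1 in sum B, all from CD14. The 10 of 12 hepatocyte markers that matched had 1 and 1, from TF. ASGR1, a liver gene outside the list, had 4 and 1 counts in the EV libraries and 29 and 25 in the sums. Among genes of EV membranes and EV formation, CD9 had 2 counts in each EV library and 3 in each sum. CD81 had 1 count in sum A, and CD63 and TSG101 had none. Endothelial markers were seen more often, with 7 of 9 genes and 19 counts in sum A and 6 genes and 14 counts in sum B. They were led by NOS3 with 9 and 8, but had a single count in the EV libraries. Over the 17916 genes whose symbol belongs to 1 identifier, 17.7% had a count in sum A and 14.0% in sum B. In lists this short, 0 counts are therefore not far from that share and need not mean absence.

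Of the 113 genes, 29 had a count in sum A and 21 in sum B. Among the 17916 genes whose symbol belongs to a single identifier, 17.7% had a count in sum A and 14.0% in sum B, against 25.7% and 18.6% of the receptor and scaffold genes. A count in either sum was found for 33 genes, or 29.2% (21.2% of the 17916), and a count in both for 17, or 15.0% (10.6%). The other 80 genes had 0 counts in all 4 columns. Most of the genes that were detected were barely so: in 17 of the 33 the higher of both sums was 1, and in 29 it was below 10. Only 3 genes reached 10 counts in sum A (1.33% of the 17916 did) and 4 in sum B (1.09%). These were DRD3, DLG4 and ADRA1B in both, and GRIN3B in B.

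**Figure D1:**
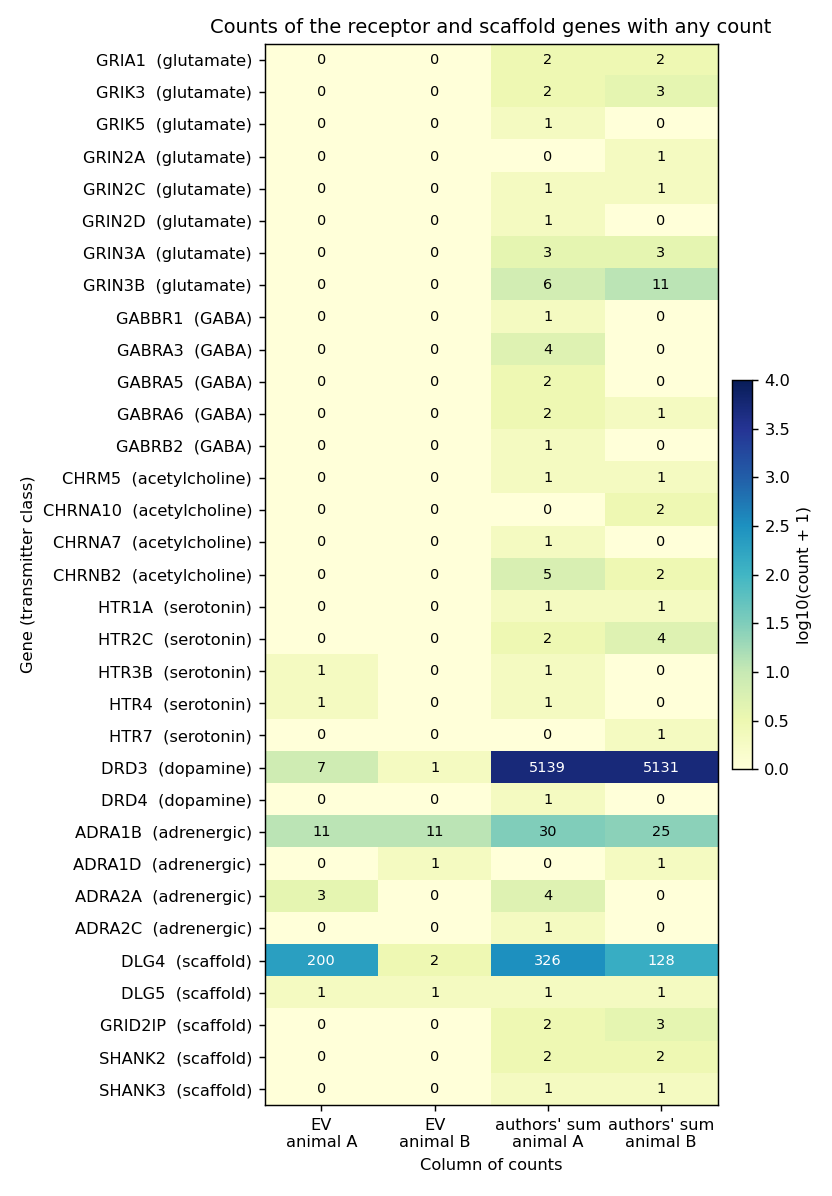
Counts of the 33 genes with any count (rows, with their transmitter class) in the EV library and the authors' summed column of each animal (columns), with the count printed in each cell and its colour on a log10(count + 1) scale. DRD3 is dark in both sums and nearly empty in the EV libraries, DLG4 is dark in EV library A and pale in EV library B, and most other genes hold 0 to 4 counts.

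The counts of the set were concentrated in few genes. The 113 genes held 5545 counts in sum A, 8.83% of all counts there (95% Clopper-Pearson interval 8.61% to 9.06%), and 5325 in sum B, 9.76% (9.52% to 10.02%). DRD3, DLG4 and ADRA1B together supplied 99.1% of those counts in A and 99.2% in B. The remaining 110 genes held 50 counts in sum A, or 0.0796% of its total (0.0591% to 0.105%), and 41 in sum B, or 0.0752% (0.054% to 0.102%). In the EV libraries the set held 224 counts in animal A, 2.15% (1.88% to 2.45%), and 16 in animal B, 0.563% (0.322% to 0.913%). Without DLG4 these shares were 0.235% in A and 0.493% in B, so the higher share in A rested on that gene. The mean EV share was 1.36% ± 1.13 (SD, n = 2), so the spread between the animals was close to the mean. Fewer releasing cells and less RNA per cell cannot be told apart in such samples.

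DRD3 (ENSMMUG00000022936) encodes the dopamine D3 receptor, a G protein-coupled receptor of limbic brain regions that lowers cyclic AMP. It had 7 counts in EV library A and 1 in EV library B, but 5139 counts in sum A and 5131 in sum B. Both sums were thus high and nearly equal, and both EV libraries were low. DRD3 held 8.18% of the counts of sum A (7.97% to 8.40%) and 9.41% of those of sum B (9.17% to 9.66%), and only 2 of all listed genes had more counts in either sum. In the EV libraries its share was 0.0673% in A (0.0271% to 0.139%) and 0.0352% in B (0.000891% to 0.196%). The share in A was 1.91 times that in B, with an interval of 0.246 to 86.2, so no difference between the EV libraries was detectable at these counts. The EV count made up 0.136% of the DRD3 sum in A and 0.0195% in B, while over all genes the EV count was 16.6% and 5.21% of the sums.

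The high count was not shared by the rest of the dopamine family. DRD4, which encodes a receptor of the same inhibitory subfamily as DRD3, had 1 count in sum A and 0 in the other columns. DRD2, the third gene of that subfamily, and DRD1 and DRD5, which encode the receptors that raise cyclic AMP, had 0 counts in all 4. The 2 nearest genes on each side of DRD3 whose symbol matched a counted gene, in the assembly T2T-MMU8v2.0, which may not be the one the authors used, are ZBTB20 and TIGIT on one side and QTRT2 and CCDC191 on the other. All 4 of these neighbours had 0 counts in every column, so the counts stood in DRD3 without a like signal in these genes. Unmatched features in between were not examined. Only 21.2% of the 17916 genes whose symbol belongs to 1 identifier had a count in either sum, so 4 empty neighbours are not unusual. The nearest matched genes of ADRA1B, namely UBLCP1, IL12B, TTC1 and PWWP2A, had 0 in every column as well. Those of GRIN3B, which had 6 counts in sum A and 11 in sum B, were not all empty. TMEM259 had 8 and 7 counts in the sums and 1 and 0 in the EV libraries. ARID3A had 2 and 5 in the sums and 0 and 1 in the EV libraries, and WDR18 and CNN2 had 0 in every column.

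DLG4 (ENSMMUG00000010536) encodes PSD-95, the scaffold that anchors NMDA receptors and, through auxiliary subunits, AMPA receptors in the postsynaptic density. It had 200 counts in EV library A, 2 in EV library B, 326 in sum A and 128 in sum B. EV library A was high and EV library B low, and sum A was higher than sum B. DLG4 held 1.92% of the counts of EV library A (1.67% to 2.21%) and 0.0704% of those of EV library B (0.00852% to 0.254%). The share in A was 27.3 times that in B (7.47 to 227), a ratio that compares 2 libraries and not 2 kinds of animal. Scaled to the total of EV library B, the 200 counts in A would be 54.7. DLG4 supplied 89.3% of the counts of the whole set in EV library A, where only 5 listed genes had more counts, and 12.5% in EV library B. The EV count was 61.3% of the DLG4 sum in A and 1.56% in B.

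Other scaffold genes were near the limit of detection. DLG5, a relative of DLG4 with a role in epithelial polarity, had 1 count in each of the 4 columns. DLG1, DLG2 and DLG3, which encode the scaffolds SAP97, PSD-93 and SAP102, had 0 in all. SHANK2 had 2 counts in each sum and SHANK3 1 in each, with none in the EV libraries, and SHANK1 had none. GRID2IP had 2 counts in sum A and 3 in sum B. In all, 5 of the 9 scaffold genes had a count in sum A and the same number in sum B (55.6% each). Over the 17916 genes the shares were 17.7% and 14.0%. No scaffold gene was found in 1 sum alone, while 1911 of the 3802 detected among the 17916 were. The sums were not shown to be independent of each other, so a count in both cannot be read as agreement between the animals. Among the nearest matched genes beside DLG4 in the same assembly, ASGR1, a liver lectin receptor gene, had 4 and 1 counts in the EV libraries and 29 and 25 in the sums, ASGR2 had 1 in sum A, and ACADVL and DVL2 on the other side had 0.

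**Figure D2:**
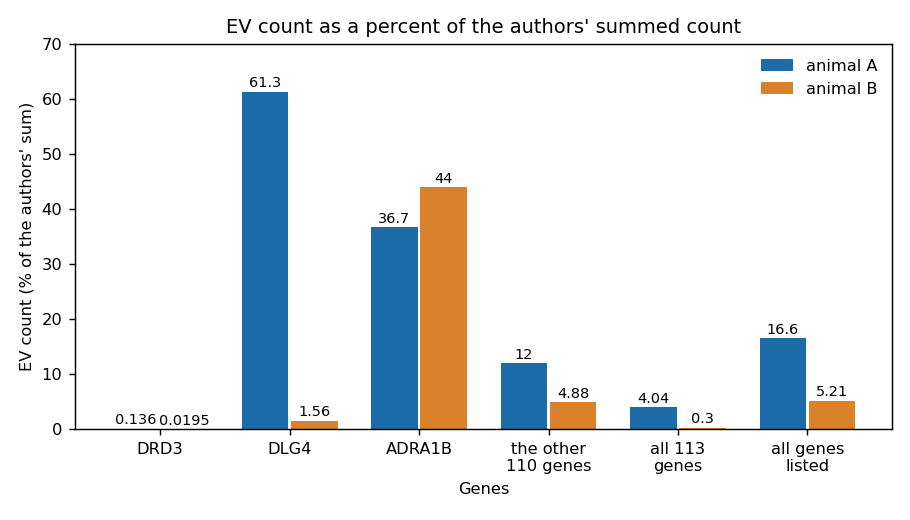
Bars give the EV count as a percent of the authors' summed count (vertical axis) in animal A and animal B, for DRD3, DLG4, ADRA1B, the other 110 genes, all 113 genes and all genes listed. DRD3 lies close to 0 in both animals, DLG4 reaches 61.3% in A against 1.56% in B, and ADRA1B lies at 36.7% and 44.0%; each bar is 1 value without an error.

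ADRA1B (ENSMMUG00000050043) encodes the alpha-1B adrenergic receptor, which responds to noradrenaline and adrenaline through Gq and acts in vessels and liver as well as brain. It had 11 counts in each EV library, 30 in sum A and 25 in sum B. It was the member with the most counts in EV library B, where it supplied 68.8% of the counts of the set. Because EV library B had the lower total, its share was higher there, with 0.387% (0.193% to 0.691%) against 0.106% in A (0.0528% to 0.189%), a ratio B over A of 3.66 (1.44 to 9.30). In the sums the shares were close, with 0.0478% in A (0.0322% to 0.0682%) and 0.0458% in B (0.0297% to 0.0677%). The EV count was 36.7% of the sum in A and 44.0% in B, above the 16.6% and 5.21% of all genes in both animals.

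The other adrenergic genes had few counts. ADRA2A, the gene of an inhibitory receptor that also limits noradrenaline release from nerve endings, had 3 counts in EV library A and 4 in sum A, with 0 in both columns of animal B. ADRA1D had 1 count in EV library B and 1 in sum B, and 0 in both columns of A. ADRA2C had 1 count in sum A alone. ADRA1A, ADRA2B and the beta receptor genes ADRB1 and ADRB3 had none. The 9 adrenergic genes had 4 members with a count in either sum (44.4%), against 21.2% of the 17916 genes. In 2 of these 4 the higher sum was 1.

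A count in an EV library was found for 8 genes of the set. In A there were 7, or 6.19% (3.97% of the 17916 genes with a symbol of their own), and in B 5, or 4.42% (1.88%). DRD3, DLG4, ADRA1B and DLG5 had a count in both libraries. ADRA2A, HTR3B, a subunit of the type 3 serotonin channel, and HTR4, a serotonin receptor that raises cyclic AMP, had one in A alone, and ADRA1D had one in B alone. A minimum of 10 counts left DLG4 and ADRA1B in A (0.218% of the 17916) and ADRA1B in B (0.0726%). For 4 of the 8, namely DLG5, ADRA1D, HTR3B and HTR4, the single EV count was the entire sum of that animal. By receptor type, 4 of the 41 G protein-coupled receptor genes had a count in EV library A and 3 in EV library B, against 1 and 0 of the 63 ion channel subunit genes. No gene for a glutamate, GABA, glycine or acetylcholine receptor had an EV count in either animal. With only 3.97% and 1.88% of the 17916 genes detected, few genes of any class would be seen at these totals of gene counts.

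Glutamate receptor genes were seen in the sums alone. Of 26 genes, 7 had a count in sum A (26.9%) and 6 in sum B (23.1%), with 16 and 21 counts. Over the 17916 genes the shares were 17.7% and 14.0%. NMDA receptor subunits made up most of the glutamate receptor genes seen, with 5 of 7 genes in either sum, against 21.2% of the 17916. In 3 of those 5 the higher sum was 1. GRIN3B, which encodes a glycine-binding subunit, had 6 counts in A and 11 in B (exact Poisson intervals 2.20 to 13.1 and 5.49 to 19.7), which overlap. GRIN3A, the gene of the related subunit, had 3 and 3. GRIN2C had 1 and 1, GRIN2D 1 and 0, GRIN2A 0 and 1, and GRIN1, the subunit gene that all NMDA receptors need, had 0 in both. Among kainate receptor subunits GRIK3 had 2 and 3 counts and GRIK5 1 and 0, and among AMPA receptor subunits GRIA1 had 2 and 2. None of the 8 metabotropic glutamate receptor genes had a count.

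Among inhibitory receptor genes, those for GABA were seen more often in sum A than in sum B. Of 21 GABA receptor genes, 5 had a count in sum A, with 10 counts, and 1 in sum B, with 1 count. Detection was also higher in A over the 17916 genes, at 17.7% against 14.0%, with 1288 genes in sum A alone and 623 in sum B alone. Those of A were GABRA3 with 4 counts, GABRA5 and GABRA6 with 2 each, and GABRB2 and GABBR1 with 1 each, and B had GABRA6 with 1. GABRA3, GABRA5, GABRA6 and GABRB2 encode subunits of the GABA-A chloride channel and GABBR1 a subunit of the GABA-B receptor. A difference of this size rests on single counts, and it was not tested. All 5 glycine receptor genes had 0 counts in every column.

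For acetylcholine, 3 of 21 receptor genes (14.3%) had a count in each sum. Over the 17916 genes the shares were 17.7% in sum A and 14.0% in sum B. CHRNB2, the beta subunit of the main nicotinic receptor of the brain, had 5 and 2 counts, CHRNA7 1 and 0, CHRNA10 0 and 2, and the muscarinic gene CHRM5 1 and 1. For serotonin, 4 of 17 genes had a count in sum A (23.5%) and 3 in sum B (17.6%). HTR2C, a Gq-coupled receptor gene of brain and choroid plexus, had 2 and 4 counts, HTR1A 1 and 1, HTR3B and HTR4 1 and 0, and HTR7 0 and 1. None of these genes had more than 5 counts in a sum.

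**Figure D3:**
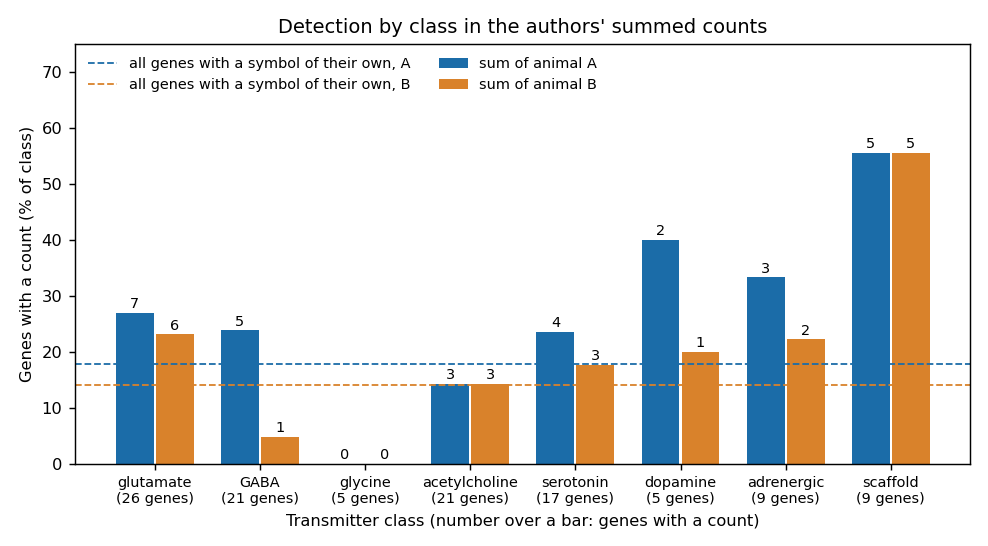
Bars give the percent of the genes of each class with a count in the authors' sum of animal A and of animal B, with the number of genes over each bar; dashed lines mark the 17.7% and 14.0% of the 17916 genes with a symbol of their own. Scaffold genes stand highest with 5 of 9 in both sums, GABA receptor genes differ with 5 and 1 of 21, and glycine receptor genes are at 0; classes of 5 or 9 genes move by large steps with a single gene.

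Receptor types were detected to like extents in the sums. Of the 41 G protein-coupled receptor genes, 10 had a count in sum A (24.4%) and 7 in sum B (17.1%). Of the 63 ion channel subunit genes, 14 had one in A (22.2%) and 9 in B (14.3%). Both pairs of values lie near the 17.7% and 14.0% of the 17916 genes. The 104 receptor genes without the scaffolds had 24 members detected in A (23.1%) and 16 in B (15.4%).

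Once the EV count was taken off each sum, the animals lay close together for the leading genes. DRD3 had 5132 counts left in A and 5130 in B (exact Poisson intervals 4993 to 5274 and 4991 to 5272). DLG4 had 126 left in each (105 to 150). ADRA1B had 19 and 14 left, with intervals of 11.4 to 29.7 and 7.65 to 23.5. Which libraries the sums hold was not stated, so these differences describe the columns as deposited. Over the set, 16 genes had counts left in both animals, and 8 of these were exactly equal. Among the 17916 genes 1059 of 1814 were equal, or 58.4%. Apart from DLG4 the equal pairs of the set were of 1 to 3 counts. They were CHRM5, GRIA1, GRIN2C, GRIN3A, HTR1A, SHANK2 and SHANK3. Whether both sums hold reads of a common library was not tested, so the like values of DRD3 in A and B cannot be read as 2 independent measurements.

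**Figure D4:**
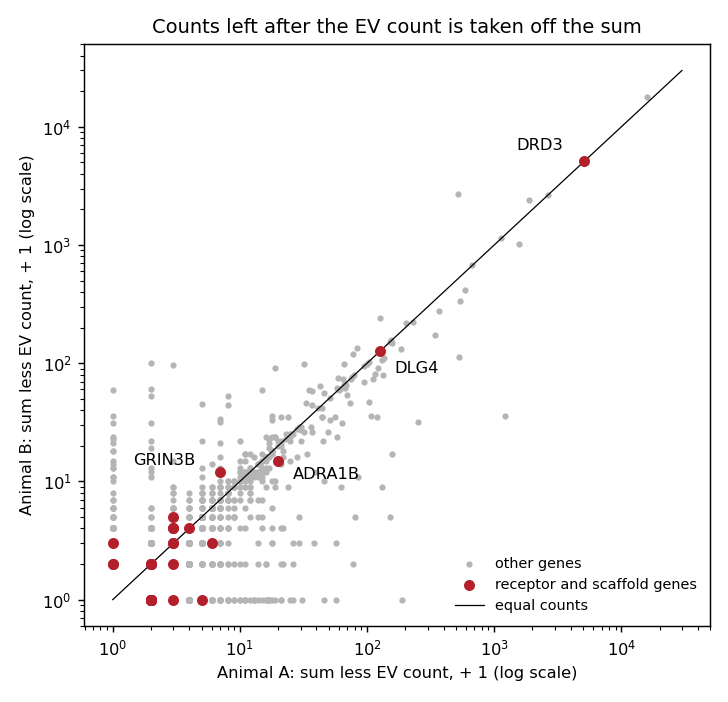
Each point is a gene, with the count left in animal A (horizontal) and in animal B (vertical) once the EV count was taken off the authors' sum, plus 1, on log axes; red points are the 29 receptor and scaffold genes with counts left, many of them on top of each other, and the line marks equal counts. DRD3 at 5132 and 5130 and DLG4 at 126 and 126 lie on the line; genes whose EV count exceeded the sum were left out of the plot.

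Few genes outside the set had the same pattern as its leading members. Likeness was measured as the distance over log2(count + 1) in the 4 columns, among 54 genes with at least 50 counts in both sums. Nearest to DLG4 was ONECUT3, a homeobox transcription factor gene, with 126 and 4 counts in the EV libraries and 354 and 228 in the sums (distance 1.30). POLRMT, the mitochondrial RNA polymerase gene, had 176 and 0 in the EV libraries and 251 and 75 in the sums (1.81). Both were, like DLG4, high in EV library A and low in EV library B. With the EV counts taken off, ONECUT3 had 228 and 224 left and POLRMT 75 and 75. DRD3 had no near neighbour: the closest genes were ABHD17A, a depalmitoylase gene, with 0 EV counts and sums of 1141 and 1152 (distance 4.40), the unnamed ENSMMUG00000013446 with 2 and 0, and 674 and 671 (4.49), and MMP1, a collagenase gene, with 0 EV counts and 520 and 2679 (4.67).

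Genes that work beside these receptors had few counts each. The lists held 126 genes with a matching symbol, of which 29 had a count in sum A (23.0%) and 23 in sum B (18.3%), with 77 and 64 counts in all, against 17.7% and 14.0% of the 17916 genes. In the EV libraries 6 had a count in A (4.76%, against 3.97% of the 17916) and 2 in B (1.59%, against 1.88%). Among 20 transmitter transporters 3 were seen in A and 1 in B, with at most 2 counts. Of 18 genes for transmitter synthesis and breakdown 3 were seen in each sum, and DBH, the enzyme that makes noradrenaline, had 2 counts in EV library B and 2 in sum B. Receptor auxiliary subunits and regulators had 7 of 20 in A and 4 in B, with the highest sum in SHISA6, an AMPA receptor partner, at 0 and 4 counts. Presynaptic release genes had 7 of 28 in each sum, led by PCLO, an active zone scaffold gene, with 5 and 3.

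Other postsynaptic scaffold and adhesion genes held the most counts of these lists, with 9 of 40 genes and 42 counts in sum A and 8 genes and 37 counts in sum B. NLGN2, the neuroligin of inhibitory synapses, had 7 and 0 counts in the EV libraries and 22 and 15 in the sums. NLGN3, a related adhesion gene, had 3 and 2, and 9 and 14. None of these genes came near the summed counts of DRD3 or DLG4.

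Markers of nerve and glial cells had at most 4 counts in a sum. The 16 neuron markers had 2 counts in EV library A, 0 in EV library B, and 8 in each sum, from 3 genes in A and 6 in B, where 17.7% and 14.0% of the 17916 genes had a count. The neurofilament gene NEFH supplied both EV counts and had sums of 4 and 2. RBFOX3, which encodes the neuronal nuclear protein NeuN, had 3 and 1, and UCHL1 had 1 and 2. ENO2, NEFL and SYN1 had 0 and 1 each. The other neuron markers, MAP2, TUBB3, SNAP25 and SYT1 among them, had 0 in every column. The 9 astrocyte and oligodendrocyte markers had 2 counts in each sum, 1 each from GFAP and ALDH1L1, and none in the EV libraries. The 200 EV counts of DLG4 in animal A stood beside 2 counts over all neuron markers. In that library 3.97% of the 17916 genes had a count, and the source of the DLG4 counts was not tested.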

How the data were processed

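Per the labels' protocols, RNA came from a Norgen purification kit and libraries from a QIAseq UPXome kit. The submitters' processing notes name STAR as the aligner. The sources used here do not give its version, the genome build, the counting step or any use of molecular identifiers. The authors deposited raw gene counts for the EV library of each animal (4642 genes), counts summed per animal (35432 genes), and, per library, input reads (913091 to 3612560) with the percent mapped uniquely (16.35% to 24.26%) or to several places. EV genes not listed were taken as 0. The EV count exceeded the sum in none of the 113 genes but in 28 others in 1 or both animals, so the sums cannot be the EV counts plus other counts for every gene.

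Of the 35432 identifiers, 24186 had a symbol. Shares have 95% Clopper-Pearson intervals, ratios of shares exact conditional binomial intervals, and single counts exact Poisson intervals (scipy 1.17.1, pandas 2.3.3). The intervals of shares and ratios were tested on simulated data, and the Poisson intervals were not. The 2 animals are single libraries per fraction, so no p-value was computed. Members, lists and the naming rule were chosen with earlier results of these data known. The rule named members with an EV count, members with at least 10 summed counts, the highest member of each class, and the 3 genes most like DRD3 and DLG4. Some genes that it would name are not reported here. All other names were chosen after their values were seen. Alternatives changed the detection minimum, the members, the denominator and the depth. Sequences were not used here, and gene coordinates served only to find the neighbours of leading members.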

Additional observations from a re-analysis of the deposited data

How the results depend on the processing

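The number of genes of the set with a count fell with a higher minimum. At 2 counts it was 4 in EV library A, 2 in EV library B, 15 in sum A and 12 in sum B, and at 10 counts 2, 1, 3 and 4. Thinned to the total of EV library B, EV library A would have 4.30 of its 7 genes on average. Without DLG and SHANK genes EV library B had 3. Taking the EV count off the sums, chosen after seeing the data, left 26 genes in A and 19 in B.

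Shares and EV percentages rested on DRD3 and DLG4. The share of EV library A was 0.235% without DLG4 and 0.167% without both, and that of EV library B 0.493% and 0.458%. The share of sum A was 0.704% without DRD3, 8.35% without DLG4 and 0.14% without both, and that of sum B 0.393% without DRD3 and 0.134% without both. With genes that have a symbol as denominator, the shares were 4.31% and 1.75% in the EV libraries and 15.1% and 17.5% in the sums. Leaving out the 10 features with the most counts, which removes DRD3 from the sums and DLG4 from EV library A, gave 1.01%, 2.31%, 2.02% and 1.40%. The EV count as a percent of the sum was 53.4% in A and 7.73% in B without DRD3, 21.2% and 19.7% without both genes, and in A 0.46% without DLG4 and 0.441% without DLG and SHANK. The mean EV share ranged from 0.563% to 2.15% when either library was left out. The ratio of EV shares, A over B, ranged from 1.23 to 2.03 for DRD3 and from 17.6 to 27.3 for DLG4 over the denominators tried. No paired analysis was possible because gene counts of single libraries were analysed for the EV fraction alone, and the sums pool libraries that are not named. The low number of gene counts limits every class but these few genes, since most detected members rest on 1 to 4 counts.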
